A study of Mus musculus with 4 samples.

Results

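The genes described here are 10 Cdk inhibitor and p53 pathway genes, taken by name from 21887 protein-coding genes: the inhibitors Cdkn1a, Cdkn1b, Cdkn1c, Cdkn2a, Cdkn2b, Cdkn2c and Cdkn2d, and Trp53, its regulator Mdm2 and its target Sesn2. The data are 2 lists of binding peaks of HA-tagged Fbxl10, the histone demethylase also called Kdm2b, in mouse embryonic fibroblasts (MEFs). Induced cells had been given doxycycline at 1 µg/ml for 48 hours to switch on HA-Fbxl10, non-induced cells had no doxycycline label, and both carried the same HA-Fbxl10 transgene. HA antibody was used for chromatin immunoprecipitation with sequencing (ChIP-seq) in both, and the labels describe 1 ChIP and 1 input library for each condition. The labels name neither the promoter of the transgene nor the strain or embryo age, and peak lists offer no expression by which to check the fibroblast label. The induced list holds 5497 peaks and the non-induced list 10532. With 1 list per condition there is no replicate check and no test, so the values below describe the lists alone. How many reads stand behind each list is unknown.

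Cdk inhibitors bind cyclin-dependent kinases and stop the cell cycle before DNA replication. The Ink4 family (Cdkn2a, Cdkn2b, Cdkn2c, Cdkn2d) blocks Cdk4 and Cdk6, and the Cip/Kip family (Cdkn1a, Cdkn1b, Cdkn1c) blocks a wider set of cyclin-Cdk pairs. The tumour suppressor p53, encoded by Trp53, switches on Cdkn1a, Mdm2 and Sesn2 after DNA damage, and Mdm2 in turn marks p53 for degradation. Kdm2b binds unmethylated CG dinucleotides through its CXXC zinc finger and brings a Polycomb complex to them. In fibroblasts it is known to repress the Ink4 locus, where Cdkn2a and Cdkn2b lie side by side, and so to delay senescence.

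In the induced list 6 of the 10 genes (60%) had a peak within 1 kb of a gene border, which is either end of the gene: Cdkn2a, Cdkn2b, Cdkn2c, Cdkn2d, Trp53 and Sesn2. The same holds for 13.4% of all protein-coding genes (exact 95% binomial interval 12.9 to 13.8, counting error only). Within 5 kb of a border there were 8 of 10, with Cdkn1a and Cdkn1b added, against 18.4% of all genes. Cdkn1c and Mdm2 had no peak in these windows. A peak overlapped the gene itself in 6 of 10, namely Cdkn1a and the genes of the first count other than Trp53, against 16.5% of all genes. In the non-induced list 0 of 10 had a peak within 1 kb of a border, which allows a share of up to 30%, beside 1.59% of all genes. Within 5 kb it was also 0 of 10, beside 5.36%. Inside the gene it was 1 of 10, Cdkn2a, beside 10.2%. Limits for a count of 0, here and below, are 3 divided by the number of genes, an approximate upper limit at 95%. The 10 genes were chosen with these lists already known, so the counts carry no test.

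**Figure D1:**
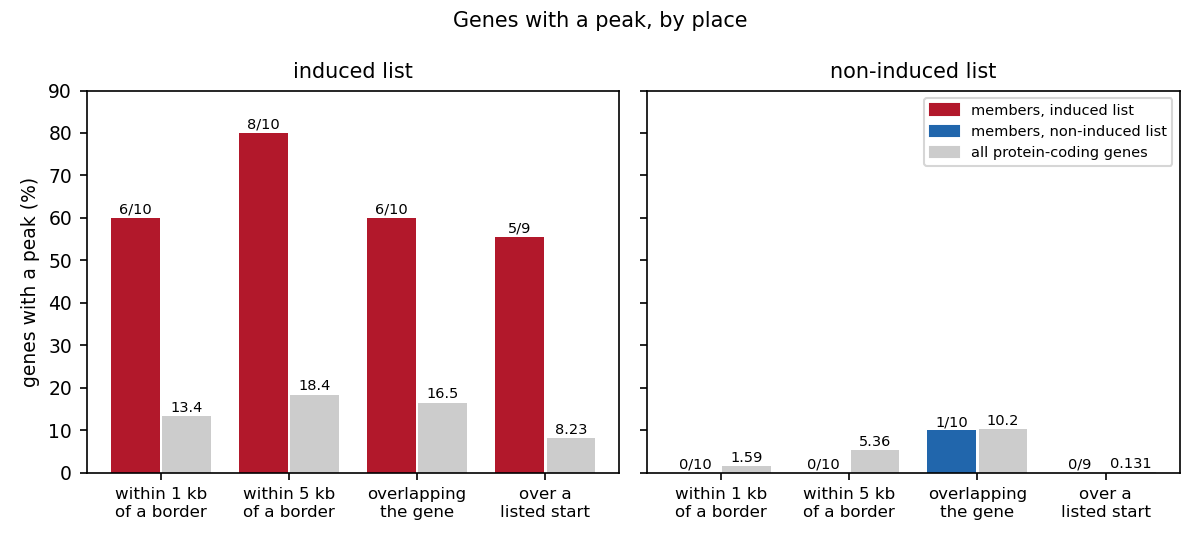
Percentage of genes with a peak, in the induced list (left) and the non-induced list (right). Coloured bars are the 10 members, with the count above each (9 members for listed starts), and grey bars are all protein-coding genes with their percentage. In the induced list the member bars stand between 55.6% and 80% and the grey bars between 8.23% and 18.4%, while in the non-induced list only Cdkn2a, by a peak inside the gene, gives a member bar above 0.

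The peaks at these genes were 11 different induced peaks and 1 non-induced peak, and 0 of them overlapped a peak of the other list. No peak served more than 1 of the 10 genes. The median distance from the gene to the nearest induced peak was 0 kb for the 10 genes and 88.1 kb for all protein-coding genes. To the nearest non-induced peak it was 115 kb and 138 kb.

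**Figure D2:**
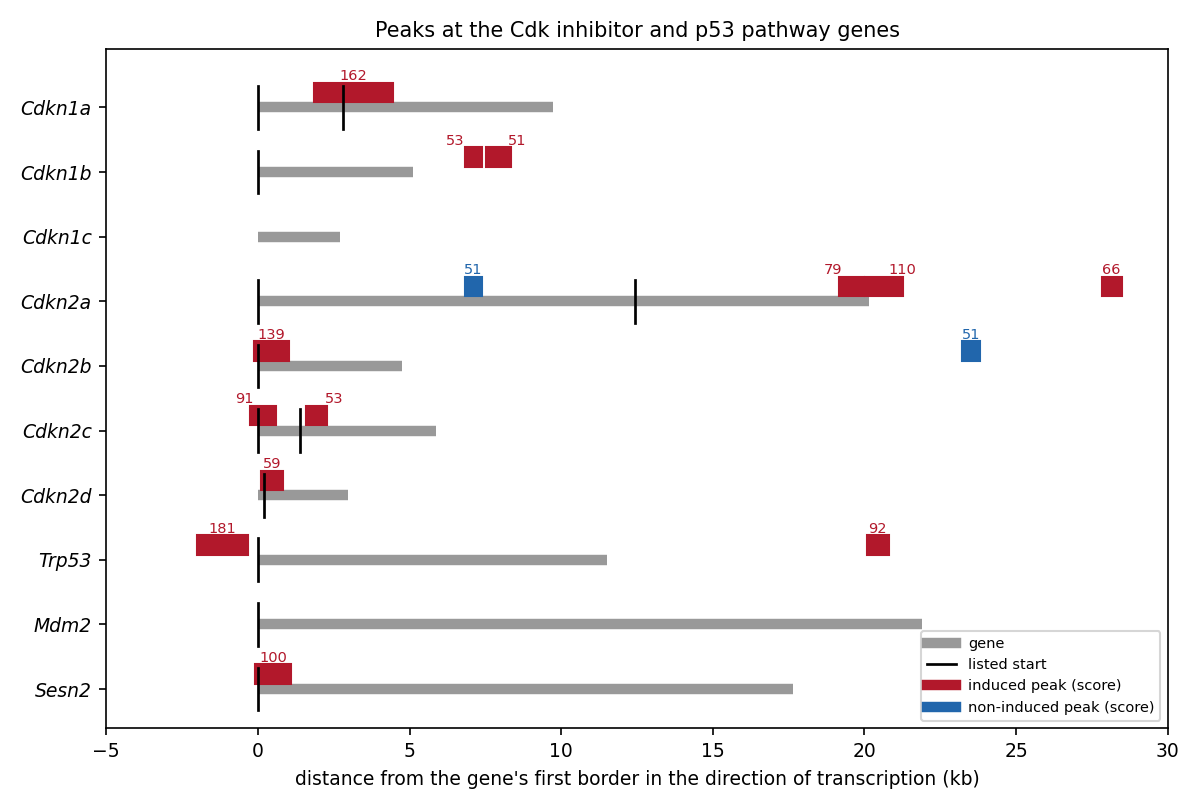
Peaks around each member, drawn to scale in the direction of transcription, with 0 at the first border of the gene (Cdkn1c, whose strand was not listed, is drawn from its lower coordinate). Grey bars are genes, black lines the listed transcription starts, red boxes induced peaks and blue boxes non-induced peaks, each with its rounded score (the blue box in the row of Cdkn2b is the peak inside Cdkn2a). Peaks of Cdkn2b, Cdkn2c, Cdkn2d and Sesn2 lie over the first listed start, that of Cdkn1a lies over the second one, those of Cdkn2a lie at the end of the gene, and Cdkn1c and Mdm2 have none.

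Transcription starts were taken from a RefSeq promoter table of the same build, which lists 12 starts for 9 of the 10 genes. An induced peak lay over a listed start in 5 of 9 genes, Cdkn1a, Cdkn2b, Cdkn2c, Cdkn2d and Sesn2, against 8.23% of the 17492 protein-coding genes with a listed start. In the non-induced list it was 0 of 9, which allows up to 33.3%, beside 0.131% of all. Within 1 kb of a listed start there were 6 of 9 in the induced list, the same 5 genes and Trp53, against 14.0%, and in the non-induced list 0 of 9, beside 0.972%. The 6 genes found at borders and the 6 found at starts were therefore not the same: Cdkn1a enters by its second start, and Cdkn2a leaves. The promoter sequences below show the starts of Cdkn1a and Cdkn2a, on which these differences turn, with those of Cdkn2b and Mdm2 beside them. They are the 250 bases before each start (RefSeq, GRCm38.p6, the build also called mm10), 5′ to 3′ on the gene's strand, with each CG in capitals.
Cdkn1a first start (chr17:29090729-29090978, plus strand): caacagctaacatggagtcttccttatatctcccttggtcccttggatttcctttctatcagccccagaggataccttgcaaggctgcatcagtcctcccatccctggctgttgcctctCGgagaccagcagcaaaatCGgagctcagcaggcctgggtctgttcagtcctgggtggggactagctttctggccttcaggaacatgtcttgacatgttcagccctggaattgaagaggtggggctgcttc
Cdkn1a second start (chr17:29093519-29093768, plus strand): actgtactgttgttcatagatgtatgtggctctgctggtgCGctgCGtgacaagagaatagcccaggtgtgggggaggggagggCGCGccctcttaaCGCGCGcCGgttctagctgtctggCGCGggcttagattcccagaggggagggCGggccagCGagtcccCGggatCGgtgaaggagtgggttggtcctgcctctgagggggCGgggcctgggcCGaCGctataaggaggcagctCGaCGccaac
Cdkn2a first start (chr4:89294620-89294869, minus strand): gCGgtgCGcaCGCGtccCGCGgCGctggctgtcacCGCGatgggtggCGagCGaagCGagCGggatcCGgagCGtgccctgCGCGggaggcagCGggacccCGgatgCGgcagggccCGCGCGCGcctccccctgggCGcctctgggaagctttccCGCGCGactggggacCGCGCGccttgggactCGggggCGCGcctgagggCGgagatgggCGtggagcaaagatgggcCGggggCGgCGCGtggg
Cdkn2a second start (chr4:89282193-89282442, minus strand): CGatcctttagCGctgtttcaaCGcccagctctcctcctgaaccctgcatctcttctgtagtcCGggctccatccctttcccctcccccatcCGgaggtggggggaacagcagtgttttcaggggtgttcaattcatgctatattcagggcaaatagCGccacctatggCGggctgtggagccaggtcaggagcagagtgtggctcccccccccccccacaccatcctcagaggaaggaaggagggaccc
Cdkn2b start (chr4:89311033-89311282, minus strand): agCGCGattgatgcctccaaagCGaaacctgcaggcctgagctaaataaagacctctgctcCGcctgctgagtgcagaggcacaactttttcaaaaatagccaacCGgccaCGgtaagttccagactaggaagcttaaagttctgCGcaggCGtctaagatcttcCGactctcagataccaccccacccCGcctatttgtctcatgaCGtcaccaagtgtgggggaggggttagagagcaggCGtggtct
Mdm2 start (chr10:117710759-117711008, minus strand): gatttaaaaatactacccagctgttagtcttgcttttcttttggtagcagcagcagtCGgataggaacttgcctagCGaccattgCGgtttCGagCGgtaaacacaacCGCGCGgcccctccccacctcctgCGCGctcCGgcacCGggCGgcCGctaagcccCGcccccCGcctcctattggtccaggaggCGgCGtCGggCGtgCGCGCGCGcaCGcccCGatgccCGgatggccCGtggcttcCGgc
Of these, the second start of Cdkn1a and the start of Cdkn2b lay under an induced peak, and the other 4 did not.

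At the Ink4 locus on chromosome 4 the induced peaks lay at opposite outer ends. Cdkn2b, which encodes p15Ink4b, covers positions 89306289 to 89311032 (gene 12579, minus strand). Its induced peak ran from 89309999 to 89311156, a width of 1158 bp, and covered the transcription start, with its midpoint 455 bp inside the gene. The score was 138.88. A score is the value the authors' peak caller gave each peak, with a lowest value of 50 in the induced list and 50.01 in the non-induced list, and here it ranks peaks of the same list and, in 1 alternative, filters both lists. This peak was number 487 of 5497 by score. It also lies inside Gm12610, a long non-coding RNA gene on the opposite strand (89295180 to 89518621), 14819 bp from its start.

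Cdkn2a (89274473 to 89294619, gene 12578, minus strand) encodes 2 unrelated proteins from different starts, p19Arf and p16Ink4a. Neither start had an induced peak. From the first start, at 89294619, the nearest was 15.4 kb away and was the Cdkn2b peak. From the second, at 89282192, the nearest was 6.74 kb away. The peaks by which Cdkn2a was counted lay at the other end of the gene. One ran from 89273363 to 89274589 across the annotated end (score 109.85, number 904) and reached 1110 bp beyond it. Another ran from 89274649 to 89275450 inside the gene (score 79.05, number 1964), with 59 bases between them. A peak at the end and at no listed start was found for 150 of the 17492 genes in the induced list (0.858%) and for 128 in the non-induced list (0.732%).

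Cdkn2a was also the 1 member with a non-induced peak, from 89287215 to 89287804, between its starts. It lay 6815 bp from the first and 5023 bp from the second. Its score of 50.78 was near the lowest of the list (number 9703 of 10532), and it overlapped none of the induced peaks.

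**Figure D3:**
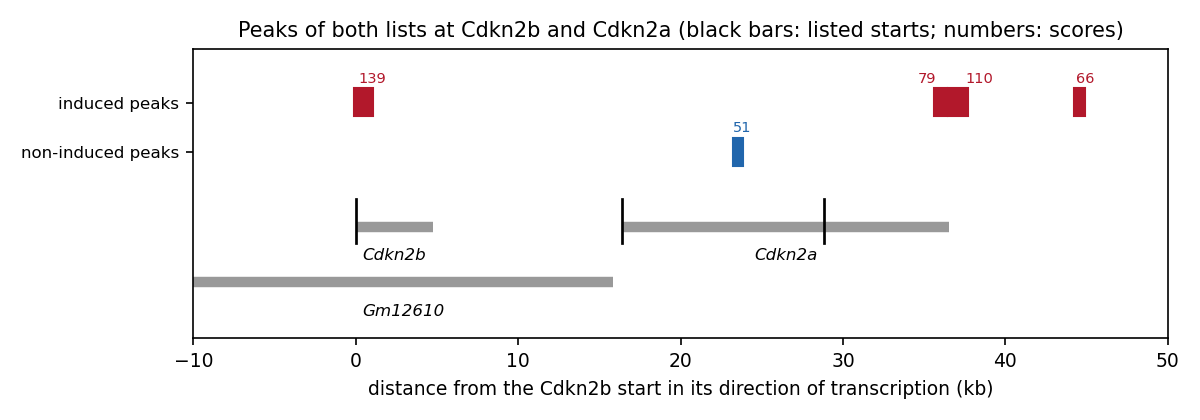
The Ink4 locus to scale, with 0 at the start of Cdkn2b and distance in kb in the direction of its transcription. Red boxes are induced and blue boxes non-induced peaks with rounded scores, grey bars are genes and black lines listed starts of Cdkn2a and Cdkn2b. An induced peak covers the start of Cdkn2b, the starts of Cdkn2a at 16.4 and 28.8 kb have none, and a pair of induced peaks stands at the end of Cdkn2a near 36.6 kb.

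The other Ink4 genes had induced peaks at their starts. Cdkn2c, which encodes p18Ink4c, lies on chromosome 4 from 109660876 to 109666756 (gene 12580, minus strand). One peak covered its first start (109666153 to 109667025, 873 bp, score 90.76, number 1508). A weaker one (109664488 to 109665184, 697 bp, score 53.48, number 4597) lay inside the gene, 188 bp past the second start, which is 1384 bp downstream of the first. Cdkn2d, which encodes p19Ink4d, lies on chromosome 9 from 21288459 to 21291421 (gene 12581, minus strand). Its peak (21290589 to 21291331, 743 bp) covered the listed start and had a score of 59.23, number 3535 of 5497, the lowest of the peaks over a start of these genes. The nearest non-induced peaks were 44.9 kb from Cdkn2c and 40.5 kb from Cdkn2d.

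Of the Cip/Kip genes, Cdkn1a had a strong peak, Cdkn1b weak ones beyond its end, and Cdkn1c none. Cdkn1a, which encodes p21, lies on chromosome 17 from 29090979 to 29100722 (gene 12575, plus strand). Its peak ran from 29092843 to 29095439 (score 161.54, number 296). At 2597 bp it was the widest of the 11, where the median induced peak is 758 bp wide. It covered the second start, at 29093769, and lay 1864 bp from the first, so that the 1 kb rule at borders leaves Cdkn1a out. Among 1499 protein-coding genes with listed starts more than 1 kb apart, 157 had an induced peak over a start, and in 153 of these (97.5%) it was over some starts and not others. A single peak of the median width cannot cover all starts of such a gene, so this share is largely set by the choice of genes. The Cdkn1a peak, too, is narrower than the 2790 bp between its 2 starts.

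The 2 starts of Cdkn1a differ in their sequence. In the 300 bases around each (250 before and 50 after), the second has 23 CG dinucleotides and the first has 2. The 250 bases before the first start hold a match to the p53 response element, searched for here as 2 adjacent copies of the 10-base p53 consensus. Copies with bases between them were not counted. Here at most 1 mismatch was allowed, none of it in the core of either copy. The consensus is its own reverse complement, so 1 search covers both strands. The match, on chr17:29090928-29090947, is shown because p53 is the known activator of Cdkn1a.
p53 element of Cdkn1a: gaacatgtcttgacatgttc
Of the 12 member starts 1 had such a match, and 0.0376% of the 21263 starts of protein-coding genes have one. The element was looked for after the sequences were seen, and this match has 1 mismatch, the most allowed. The share therefore carries no test. The match lay 1896 bp outside the induced peak.

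Cdkn1b, which encodes p27, lies on chromosome 6 from 134920401 to 134925525 (gene 12576, plus strand). Its start had no peak within 5 kb. The induced peaks lay 1715 bp and 2398 bp beyond its end (134927240 to 134927793, score 52.95, and 134927923 to 134928760, score 51.22), numbers 4713 and 5169 of 5497. The second of these was 332 bp from the start of Lockd, a long non-coding RNA gene on the same strand (134929092 to 134951718) known to hold an enhancer of Cdkn1b in red cell precursors. Both scores were near the lowest of the list. Cdkn1c, which encodes p57 and is an imprinted gene expressed from the maternal copy, lies on chromosome 7 from 143458339 to 143461059 (gene 12577). It was 388 kb from the nearest induced and 243 kb from the nearest non-induced peak.

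Among the p53 pathway genes, the highest-scoring peak of the 11 lay near Trp53 but outside it. Trp53 lies on chromosome 11 from 69580348 to 69591873 (gene 22059, plus strand). The peak (69578335 to 69580026, 1692 bp, score 181.18, number 217) ended 322 bp before the gene and 333 bp before its listed start. It lay wholly inside Wrap53, the neighbouring gene on the opposite strand (69561754 to 69580250, gene 216853), which encodes a telomerase and Cajal body protein and an antisense transcript of Trp53. The peak covered 1 of the 2 listed starts of Wrap53 and ended 224 bp from the other. By position it thus overlaps Wrap53 and no base of Trp53, for which it counts by distance alone. Which of the genes it serves was not tested.

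Sesn2, a p53 target gene whose product restrains mTORC1 signalling under stress, lies on chromosome 4 from 132492804 to 132510456 (gene 230784, minus strand). Its peak (132509378 to 132510551, 1174 bp, score 99.78, number 1171) covered the start. The nearest non-induced peak was 204 kb away. Mdm2 lies on chromosome 10 from 117688875 to 117710758 (gene 17246, minus strand). It had no peak nearby: the nearest induced peak was 81.3 kb and the nearest non-induced peak 141 kb away.

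**Figure D4:**
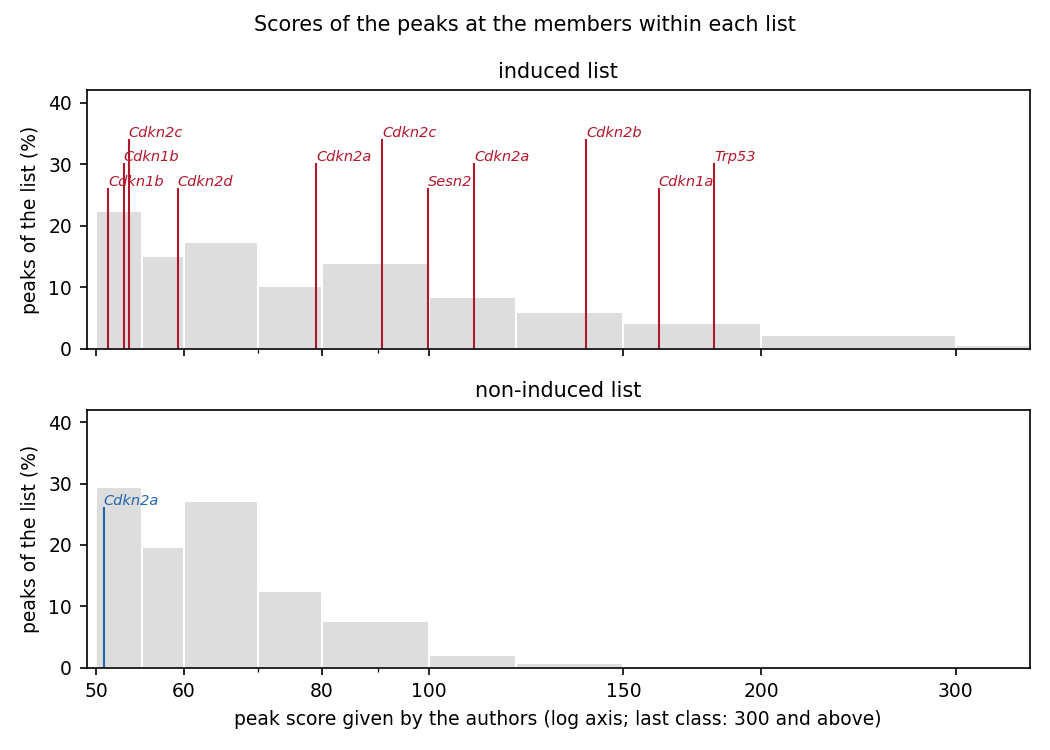
Scores of the 12 peaks within 5 kb of a member or overlapping one (coloured lines, whose heights only separate the names) over the distribution of all scores of the same list (grey bars, percentage of peaks in classes of unequal width, logarithmic score axis). Of the 11 induced peaks, 7 lie above the list's median of 66.6, with Trp53 (181.18) and Cdkn1a (161.54) highest, and the non-induced peak at Cdkn2a lies near the lower end.

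By score, the 11 induced peaks ranged from 51.22 to 181.18 with a median of 90.8, where the whole list has a median of 66.6, and 7 of them lay above that median. From the highest down, the genes followed as Trp53, Cdkn1a, Cdkn2b, Cdkn2a, Sesn2, Cdkn2c, Cdkn2d and Cdkn1b, each by its highest peak. With 1 value each, no order between neighbours can be tested. Widths ranged from 554 to 2597 bp with a median of 873 bp.

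The number of CG dinucleotides did not separate the member starts with a peak from those without. The 5 starts under an induced peak had between 18 (Cdkn2b) and 33 (Cdkn2c, first start) in 300 bases, with a median of 23. The 7 starts with no peak over them had between 2 and 45, with a median of 12. The first start of Cdkn2a, that of p19Arf, had the most of all 12, 45, which is at or above 97.9% of all starts. The starts of Mdm2 (35) and Cdkn1b (30) also had more than most of the starts under a peak. The starts of Cdkn2a for p16Ink4a (12), Trp53 (10) and the second of Cdkn2c (8) had fewer. Over all protein-coding genes, the 1592 starts under an induced peak had a median of 24 and the other 19671 a median of 11. At least 10 were found in 94.9% and 53.7% of them, and at least 1 in 95.4% of all starts. Starts of 1 gene share their surroundings, so these are descriptions without a test.

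**Figure D5:**
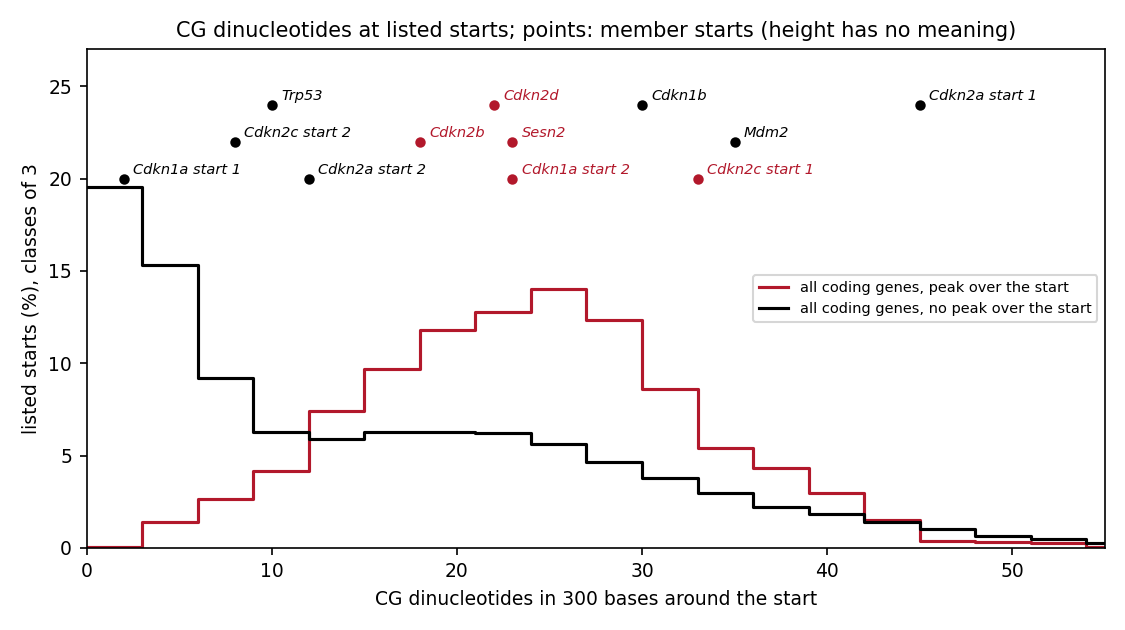
CG dinucleotides in the 300 bases around listed starts (classes of 3). Lines give the percentage of starts of all protein-coding genes, red with and black without an induced peak over the start, and points are the member starts in the same colours, at heights that only separate the names. Red points lie between 18 and 33, and black points lie on both sides of them, from Cdkn1a start 1 (2) to Cdkn2a start 1 (45).

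Other genes of these pathways were counted the same way, at borders within 1 kb. Of 28 other p53 target genes 4 (14.3%) had an induced peak, which is near the 13.4% of all genes. They were Polk, a translesion DNA polymerase (score 137.69), Ei24, an autophagy gene (66.04), Pidd1, a scaffold for caspase activation (51.91), and Phlda3, an inhibitor of Akt signalling (50.40). Inside Pidd1, 3517 bp from the nearest border, a higher-scoring induced peak lay over a listed start (63.29). Of 23 regulators and relatives of p53, 6 (26.1%) had one, among them the checkpoint kinase gene Chek2 (71.67), the p53 acetylase gene Ep300 (69.34) and the p53 deacetylase gene Sirt1 (69.14). Wrap53 is also counted here, by the Trp53 peak.

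Of 19 genes for G1 cyclins, Cdks and the Rb pathway, on which the inhibitors act, 5 (26.3%) had one, again beside 13.4% of all genes. Highest were cyclin D1, Ccnd1 (249.65), the retinoblastoma gene Rb1 (150.50), E2f1, a transcription factor that Rb restrains (78.13), and Cdk4 (70.92), the kinase that Ink4 proteins block. The Ccnd1 peak lay 952 bp outside the gene, and another induced peak, on the Ccnd1 border itself, had a score of 107.22. In the non-induced list 0 genes of each list had a peak at a border, which allows up to 10.7%, 13.0% and 15.8%. The share of all genes was 1.59%, so a count of 0 in lists this short is near the background. These lists too were made with earlier results of these data known.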

How the data were processed

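Peak lists of HA-Fbxl10 ChIP-seq in mouse embryonic fibroblasts were used, 1 from induced and 1 from non-induced cells, matched to the ChIP libraries by the marks for with and without in the titles, read as with and without doxycycline. The labels' protocol speaks of 3 independent samples; whether the lists pool them is not stated there. The input libraries were not analysed here. Reads were aligned with Bowtie2 to mm10, per the submitters' processing notes, and peaks were called with MACS, as the names of the deposited peaks show. The MACS version, the threshold and how the input served were not given in the sources used here. Each score is the authors' deposited value, with no formula given. Depth is unknown.

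Peak positions were written 1-based. Genes came from a RefSeq table (GRCm38.p6, no exons), in which 10 of 10 members matched, and starts and promoter bases from a RefSeq promoter table, in which 9 matched. A peak counted at a border or start when any base lay within 1 kb or 5 kb, and it overlapped a gene with at least 1 bp. Counts were set beside all 21887 protein-coding genes without the mitochondrial ones. The p53 element was looked for after the sequences were seen. The members and lists were chosen with earlier results of these data known. Named genes are the members, genes with a border within 1 kb of a peak at a member or around that peak and, per pathway list, up to 4 with the highest border peaks. Cdk6, Ccna2 and Sesn1 fall outside this rule and were chosen after their values were seen. Distances were tested on simulated data and overlaps checked with bedtools 2.31.1. Python 3.11.15, pandas 2.3.3, numpy 2.4.6, SciPy 1.17.1 and matplotlib 3.10.9 were used.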

Additional observations from a re-analysis of the deposited data

How the results depend on the processing

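Alternatives were border windows of 500 bp (2 kb in place of 5 kb), scores no lower than the median over both lists together (61.56, called the joint median here, which treats the scores as on a common scale, not tested), lists of equal length (5497), peak midpoints, and listed starts alone; borders or any listed start was added after the data were seen. Of 39 recomputed counts 38 stayed within 1.5 times the reported one, but some of these could not change, as given below. The comparison is of numbers, and the genes counted can differ. Of the 4 genes of the G1 list found at starts alone, 3 were among its 5 in the main count. The exception was at the joint median, where p53 target genes with an induced peak fell from 4 to 2. Equal length left the induced list of 5497 peaks as it was, so induced counts in that setting could not change. Without sex chromosomes and olfactory and vomeronasal receptor genes the share of all genes with an induced border peak was 15.2% in place of 13.4%. For the members at 1 kb the induced count was 5 at the joint median (Cdkn2d lost) and 5 by midpoints (Trp53 lost), and 7 with borders or any listed start (Cdkn1a added). Within 5 kb it was 6 at the joint median (Cdkn1b and Cdkn2d lost) and 6 at starts alone (Cdkn1b and Cdkn2a lost). The share of all genes was not recomputed for these member counts. The 13.4% at 1 kb and 18.4% at 5 kb belong to the unchanged rules only. The non-induced count at 1 kb was 0 in each of the 6 settings. It could not rise with the smaller window, the joint median, equal length or midpoints, so those settings are no check of it. No paired analysis was possible because each condition has 1 list, and no replicate could be left out. Depth is unknown, so a weak site cannot be told from an absent one.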

Other observations

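Farther induced peaks lay within 30 kb of some of these genes. They are given as values chosen after they were seen. Trp53 had further peaks 8.55 kb (score 91.79) and 29.7 kb (59.50) beyond its end, and 1 lay 18.9 kb upstream (71.55), 339 bp from the far end of Wrap53. Sesn2 had 1 peak 22.0 kb upstream (80.39) and 1 at 28.5 kb beyond its end (57.39). Cdkn1b had 1 peak 21.3 kb upstream of its start (78.76), with a higher score than the pair beyond its end. Cdkn2a had 1 more peak 7.67 kb beyond its end (65.68).

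Several pathway genes had peaks inside the gene but away from its borders. Those below too are named after their values were seen, and others of this kind are left out. Counting border peaks as well, induced peaks overlapped 7 of the 19 genes of the G1 list (36.8%), beside 16.5% of all genes. Non-induced peaks overlapped 3 of the 28 p53 target genes (10.7%), near the 10.2% of all genes. Cdk6, a kinase that Ink4 proteins block, had an induced peak over a listed start 2741 bp or more from either border (score 93.84). Ccna2, the cyclin A2 gene, had an induced peak 1183 bp inside (97.60). Sesn1, a p53 target gene and relative of Sesn2, had no induced peak within 5 kb, but a non-induced peak deep in the gene, 37538 bp from the nearest border, that was number 187 of 10532 by score (115.72).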
